A study of Mus musculus with 2 samples.

Results

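The genes described here encode 9 RNA-binding proteins that set the lifetime or translation of inflammatory mRNAs: Zfp36, Zfp36l1, Zfp36l2, Khsrp, Hnrnpd, Zc3h12a, Rc3h1, Elavl1 and Tial1. They were chosen by name, with earlier results of these data known. Every probeset annotated to exactly 1 of these symbols was taken, which gave 26 of the 45101 probesets on the array. No probeset named 1 of these genes together with another gene. The cells were RAW264.7, a mouse macrophage-like line, infected with a retroviral vector (MSCV) that was empty in one arm and encoded miR-155 in the other. Puromycin (7 µg/ml) selected the infected cells, limiting dilution gave single clones, and each arm's RNA, a pool from 5 clones, went onto 1 Affymetrix array. The stated purpose was to find mRNAs regulated by miR-155, and the level of the mature microRNA itself was not measured. No stimulus is named in the labels, and both arms carry the vector and its selection; uninfected RAW264.7 cells were not part of the comparison.

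Many cytokine mRNAs carry AU-rich elements, repeats built around the pentamer AUUUA, in the 3′ untranslated region. Destabilising proteins bind these elements or nearby stem-loops and recruit deadenylases, decapping enzymes, the exosome or their own nuclease activity, so that the message is short-lived. The stabilising protein HuR binds overlapping elements and protects the message, and TIA-type proteins hold it back from translation. In macrophages this balance limits the output of Tnf and related messages after activation, and the p38 and MK2 kinases shift it by phosphorylating the protein encoded by Zfp36.

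The microRNA supplied by the vector is shown because its seed, bases 2 to 8 from the 5′ end and printed in capitals, is the part that pairs with target mRNAs. The mature sequences are those of RefSeq on GRCm38.p6, with the 5p strand at chr16:84714143-84714165 and the 3p strand at chr16:84714182-84714202, both on the plus strand.
mmu-miR-155-5p: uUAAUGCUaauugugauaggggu
mmu-miR-155-3p: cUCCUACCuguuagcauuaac
A target of the 5p strand with full seed pairing holds AGCAUUA. None of the other mature entries in that table, which holds 1738, carried either seed. The transcripts of the 9 genes were not searched for this heptamer here, because no transcript sequences were used.

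Each difference below compares 1 array with 1 array, which leaves nothing to estimate an error from and allows no p-value. A difference is given as the log2 ratio of the deposited signals, miR-155 over empty vector, so that a positive value means a higher signal with miR-155. Each gene was represented by its brightest probeset, and the 9097 genes in the upper 50% of mean log2 signal were kept, which set a signal floor of 25.8. A 1.5-fold higher reading or more in the miR-155 arm was found for 5.32% of these genes and a 1.5-fold lower one or more for 5.99%. Their median log2 ratio was −0.048. The local SD given beside a ratio is a robust SD, from the median absolute deviation of the ratios of the 500 kept genes nearest in signal, and it does not measure the spread between clones or cultures. Less RNA per cell and fewer expressing cells or clones cannot be told apart in pooled RNA.

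The median signal of all probesets was 15.4 in the empty-vector arm and 14.1 in the miR-155 arm. All 11 macrophage markers on the array, from Csf1r and Spi1 to Cd68 and Tyrobp, were above the signal floor on both arrays. Of these, 7 were within 1.5-fold, Cd14 (log2 ratio 1.26) and Ptprc (0.64) were beyond it in the higher direction, and Adgre1 (−0.71) and Spi1 (−0.61) in the lower; their part in the ratios below was not tested. Of 29 other markers, of fibroblasts and of erythroid, B, T, NK and neutrophil lineages, 2 reached the floor on either array, and the highest signal among them was 27.2. As a sign of RNA quality, the 3′ over 5′ signal of the Actb controls was 1.30 with empty vector and 1.26 with miR-155, and that of the Gapdh controls 0.794 and 0.808.

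Of the 9 genes, 8 passed the signal filter, of which 6 were within 1.5-fold, 1 read higher than that in the miR-155 arm and 1 lower than that. These counts stand beside 5.32% and 5.99% of all genes kept, and counts of 1 are too small to set against those shares. The higher gene was Zfp36l1 and the lower gene was Khsrp, both of the destabilising class. The lower reading of Khsrp was carried by 1 of its 3 probesets. Over the 8 genes the median log2 ratio was −0.18, against −0.048 for all genes kept, and 6 of the 8 had a ratio below 0, as did 58% of all genes kept.

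**Figure D1:**
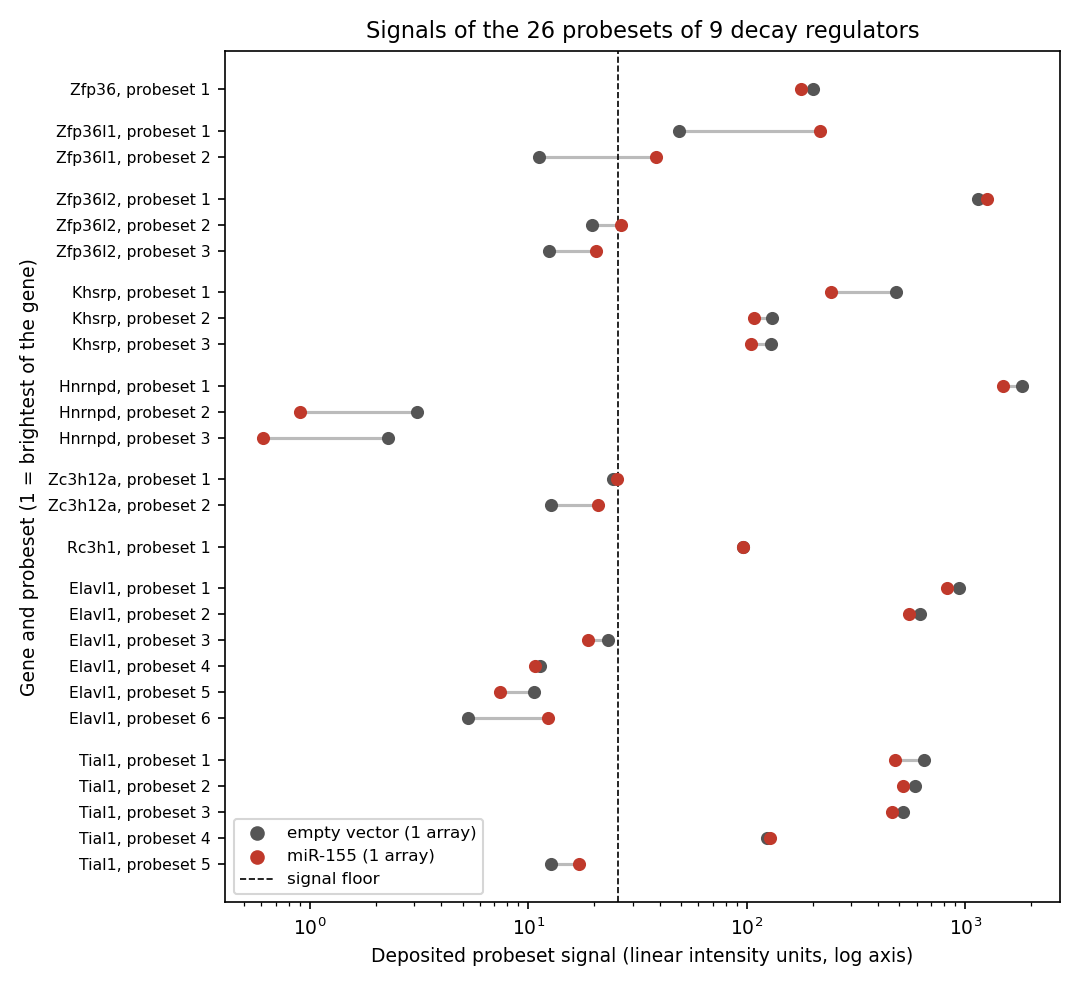
Deposited signals of all 26 probesets of the 9 genes on the empty-vector array (grey) and the miR-155 array (red), 1 array each, on a log axis, with the signal floor of 25.8 as a dashed line. The Zfp36l1 probesets lie far apart in the direction of higher miR-155 signal, the first Khsrp probeset lies apart in the other direction, and most pairs above the floor nearly coincide.

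The Zfp36 family holds the tandem CCCH zinc finger proteins that bind AU-rich elements and recruit the CCR4-NOT deadenylase. Zfp36l1, also known as BRF1 or TIS11b, read 49.0 in the empty-vector arm and 216 in the miR-155 arm. That is 4.41-fold higher, a log2 ratio of 2.14 with a local SD of 0.35. It was the 19th highest ratio of the 9097 genes kept, and among the 500 genes nearest to it in signal 2, itself included, had a ratio at least as high. Of those 500 genes, 4.6% read at least 1.5-fold higher. The further Zfp36l1 probeset read 11.2 and 38.3, also higher on the miR-155 array, but its empty-vector signal lies below the floor. Both probesets are annotated to the same accession, so they are not independent readings of the gene.

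Zfp36, which encodes tristetraprolin, the family's founding member and a main brake on Tnf mRNA, read 201 in the empty-vector arm and 176 in the miR-155 arm by its single probeset. Its log2 ratio of −0.19 is smaller in size than its local SD of 0.29. Zfp36l2, another family member, read 1140 and 1264, a log2 ratio of 0.15 with a local SD of 0.15. The 2 further Zfp36l2 probesets read 19.6 and 26.5, and 12.4 and 20.4, with a reading below the floor in each. The log2 ratio of Zfp36l1 thus exceeded that of Zfp36 by 2.33 and that of Zfp36l2 by 1.99 in the same pair of arrays, while Zfp36 and Zfp36l2 themselves were within 1.5-fold.

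**Figure D2:**
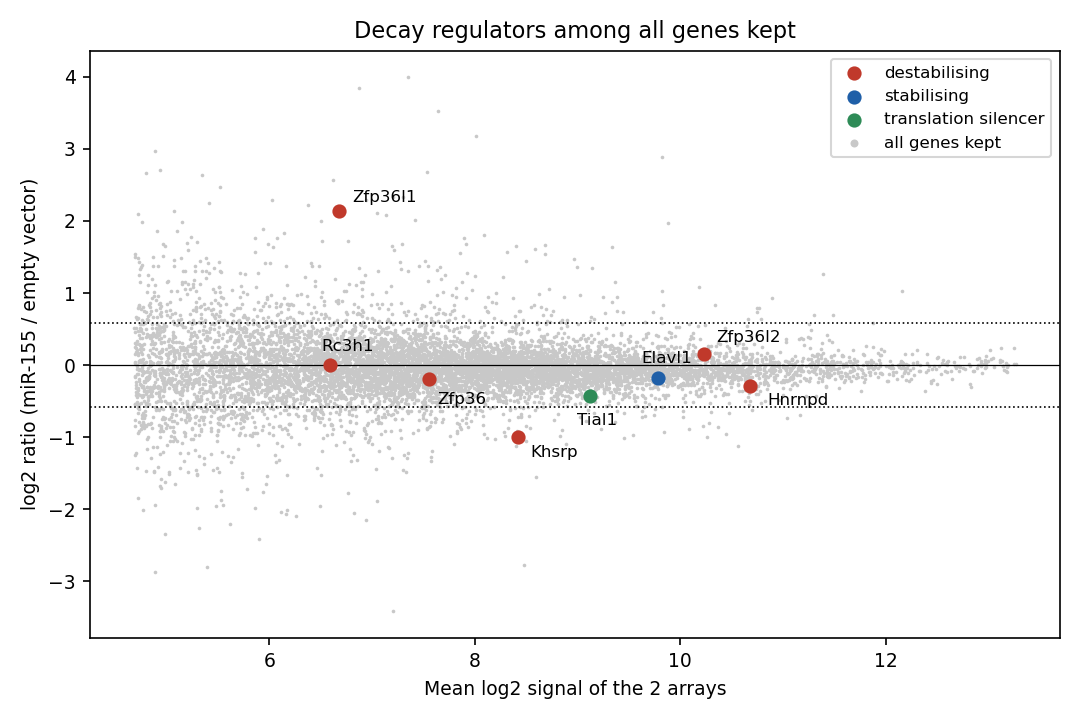
The log2 ratio of miR-155 to empty vector (y) against the mean log2 signal (x) for the 9097 genes kept (grey), with the 8 regulators that passed the filter coloured by class; dotted lines mark 1.5-fold. Zfp36l1 at 2.14 stands above and Khsrp at −0.99 below the 1.5-fold lines, and the other 6 lie between them.

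Khsrp encodes KSRP, a KH-domain protein that binds AU-rich elements, brings in the exosome and other decay enzymes, and also takes part in the maturation of some microRNA precursors. Its brightest probeset read 484 in the empty-vector arm and 244 in the miR-155 arm. That is 1.99-fold lower, a log2 ratio of −0.99 with a local SD of 0.21. Of the 500 genes nearest in signal, 4 including Khsrp had a ratio as low or lower. The other 2 Khsrp probesets read 130.0 and 108 (log2 ratio −0.26, local SD 0.32) and 129.6 and 105.0 (−0.30, local SD 0.31), so they shared the direction but stayed within 1.5-fold. Those 2 are annotated to a common accession, different from that of the brightest probeset. The brightest probeset ends in _x_at, the suffix by which the manufacturer marks probesets whose probes may also match other sequences, and so does 1 of the other 2. Its ratio differed from the median of the other 2 by 0.71. Among 1476 genes whose brightest probeset and at least 2 further ones had both signals at or above the floor, 31 genes (2.1%) had a gap of that size or more, and the median gap was 0.16. Of the 44 such genes whose brightest probeset was at least 1.5-fold lower, 30 had further probesets whose median was not. Further probesets short of 1.5-fold were thus usual among genes picked by a low brightest probeset. How often a gap as large as that of Khsrp occurred among those 44 was not counted. Whether the Khsrp transcript differed 1.99-fold or by the smaller amount was not resolved by these probesets.

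Hnrnpd encodes AUF1, whose isoforms are mostly described as destabilising and in some settings as stabilising. It read 1815 in the empty-vector arm and 1487 in the miR-155 arm, a log2 ratio of −0.29 with a local SD of 0.15. Its 2 further probesets had signals between 0.61 and 3.09, far below the floor, and carry no usable ratio. Rc3h1 encodes Roquin-1, which binds stem-loops in messages such as Icos and Tnf and recruits the deadenylase. It read 96.4 and 96.3, a log2 ratio of −0.0020 with a local SD of 0.35. Zc3h12a encodes Regnase-1, an endonuclease that cuts stem-loops of Il6 and related messages. It read 24.4 and 25.4 by its brighter probeset and 12.7 and 20.8 by the other, all below the floor, so it did not pass the filter and no ratio is given.

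Elavl1 encodes HuR, the ubiquitous stabilising protein. It read 936 in the empty-vector arm and 828 in the miR-155 arm, a log2 ratio of −0.18 with a local SD of 0.17. A further probeset, annotated to a different accession, read 618 and 550 (−0.17, local SD 0.20). Its 4 dim probesets had signals between 5.32 and 23.1, below the floor on both arrays, 1 of them higher and 3 lower on the miR-155 array.

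Tial1 encodes TIAR, which binds AU-rich elements and silences translation, and it was kept apart from both classes. Its brightest probeset read 646 and 479, a log2 ratio of −0.43 with a local SD of 0.20. Of 3 further probesets above the floor, 2 read 587 and 519 (−0.18) and 520 and 462 (−0.17), and the other read 124 and 128 (0.04). All 4 were within 1.5-fold, and the brightest carried the largest difference. The remaining probeset read 12.7 and 17.1.

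Over all probesets of the 9 genes, 14 had both signals at or above the floor, and 12 of these were within 1.5-fold, with 1 higher and 1 lower beyond it. Of all named probesets with both signals at the floor, 4.06% were beyond 1.5-fold in the higher direction and 5.58% in the lower. The ratio was below 0 in 11 of the 14 and the median was −0.18. Those 14 are not separate genes, as Tial1 supplied 4, Khsrp 3 and Elavl1 2. Among all genes kept 58% had a ratio below 0, and the share over probesets was not computed.

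Destabilising and stabilising proteins were then set side by side. The 6 destabilising genes that passed the filter had log2 ratios from −0.99 for Khsrp to 2.14 for Zfp36l1, with 2 above 0 and 4 below, and a median of −0.10. Elavl1, the 1 stabilising gene, was at −0.18. The difference of 0.08 is smaller than the local SD of either Elavl1 or any of the destabilising genes, and 3 of the 6 lay above Elavl1 and 3 below it. The class of 1 stabilising gene has no spread of its own. The destabilising class had no common direction: the spread within it, between Zfp36l1 and Khsrp, was far wider than the difference between the classes. Zfp36 and Elavl1, which compete for elements of the same messages, differed in log2 ratio by 0.015.

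The promoters of Zfp36l1 and Zfp36 are shown because these paralogues differed most within the family, so that the stretches upstream of their start sites can be read side by side. They are the 250 bases before the RefSeq start on GRCm38.p6, both on the minus strand, at chr12:80113014-80113263 for Zfp36l1 and chr7:28379229-28379478 for Zfp36. Capitals mark a match to 1 of 4 motifs searched on both strands: AP-1 (TGANTCA), EGR (GCGGGGGCG), the κB consensus and the interferon-stimulated response element.
Zfp36l1: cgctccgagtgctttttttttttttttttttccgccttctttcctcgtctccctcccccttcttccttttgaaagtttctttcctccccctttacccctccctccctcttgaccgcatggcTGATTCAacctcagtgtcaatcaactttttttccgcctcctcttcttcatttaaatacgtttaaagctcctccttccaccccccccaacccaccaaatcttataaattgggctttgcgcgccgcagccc
Zfp36: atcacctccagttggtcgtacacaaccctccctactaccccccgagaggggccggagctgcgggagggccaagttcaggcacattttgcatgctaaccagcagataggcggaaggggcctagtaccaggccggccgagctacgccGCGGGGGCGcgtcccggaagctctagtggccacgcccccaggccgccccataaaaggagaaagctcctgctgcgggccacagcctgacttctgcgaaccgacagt
Zfp36l1 held 1 match, to the AP-1 motif, starting 129 bases before the start site, and Zfp36 held 1 match, to the EGR motif, starting 105 bases before it. Of 32851 such windows over all genes, 6.75% held the AP-1 motif, 2.57% the EGR motif, 7.25% the κB motif and 0.904% the interferon motif. Windows were matched for 8 of the 9 genes, all but Zfp36l2. Rc3h1 was the other gene with an AP-1 match, and no window of the 8 genes held the κB or interferon motif. The GC content of the window was 48.4% for Zfp36l1 and 64.8% for Zfp36. No binding was measured here, and a match describes the letters alone.

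Other proteins that bind AU-rich elements or stem-loops were mostly within 1.5-fold, as were most genes, 11.3% of all genes kept being beyond it in either direction. Of 29 listed genes kept, 28 were within 1.5-fold, 1 was beyond it in the lower direction and 0 in the higher, and the median log2 ratio was −0.067. The lower gene was Auh, an enoyl-CoA hydratase that also binds AU-rich RNA, at 164 against 94.4 (1.74-fold lower, log2 ratio −0.80, local SD 0.30). Its 1 further probeset with both signals above the floor was at −0.24. The next largest were Igf2bp3, an mRNA-binding oncofetal protein (−0.55, local SD 0.52), Hnrnpa1 (−0.33, but 0.17 in a further probeset) and Rc3h2, the paralogue of Rc3h1 encoding Roquin-2 (−0.29, and −0.70 in a further probeset).

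The enzymes to which the destabilising proteins hand their messages were likewise mostly within 1.5-fold. Of 49 genes of deadenylation, decapping and the exosome, 48 were within 1.5-fold. Beyond it lay 1 in the lower direction and 0 in the higher, beside 5.99% and 5.32% of all genes kept. The median was −0.042. The lower gene was the exosome subunit Exosc1, at 239 against 149 (1.60-fold lower, log2 ratio −0.68, local SD 0.28). Its 2 further probesets, at 0.08 and −0.28, were within 1.5-fold. Dis3l, a cytoplasmic exosome nuclease, was at −0.48, Cnot10, a subunit of CCR4-NOT, at −0.43 (but −0.20 and 0.14 in 2 further probesets) and Tob1, which links that complex to poly(A)-binding protein, at −0.43.

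Among 21 genes of the p38 and MK2 pathway, its phosphatases and 14-3-3 partners, 20 were within 1.5-fold and the median was −0.057. In the higher direction 1 gene was beyond it and in the lower 0, beside 5.32% and 5.99% of all genes kept. The higher gene was Dusp16, a phosphatase of stress-activated kinases, at 49.7 against 90.5 (1.82-fold, log2 ratio 0.87, local SD 0.41). Map2k3, a kinase that activates p38, was at −0.45 (local SD 0.17) and −0.51 in its further probeset. Akt1 was at −0.40, but 0.01 in a further probeset, and Dusp1, the p38 phosphatase whose own message is unstable, at 0.31.

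The inflammatory messages that carry AU-rich elements were, by count, the list with the most members beyond 1.5-fold. This list, like the others, was drawn up with earlier results of these data known, so its counts may reflect that choice. Of 46 listed, 31 were kept, of which 20 were within 1.5-fold, 9 were beyond it in the higher direction and 2 in the lower, beside 5.32% and 5.99% of all genes kept. The median was 0.22 against −0.048 for all genes kept. The immediate-early factor Egr1 read 55.7 and 272 (log2 ratio 2.29, local SD 0.32). Ptgs2, the inducible cyclooxygenase, read 82.5 and 259 (1.65, and 1.36 in its further probeset). Plau, the urokinase plasminogen activator, read 103 and 256 (1.31, and 0.83 in its further probeset). The chemokine Cxcl1 went the other way, at 73.9 and 27.3 (−1.43, local SD 0.54), with the latter just above the floor. That probeset ends in _x_at, and the 2 further Cxcl1 probesets, below the floor in both arms, read 5.40 and 5.73, and 8.47 and 7.80. The other lower gene, Fos, read 1043 and 532 by its brightest probeset (−0.97, local SD 0.18). These genes are also induced transcriptionally by NF-κB and other factors, and their mRNA stability was not measured, so their part in the ratios of the regulators, or the reverse, was not tested.

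Of 25 reported target messages of Regnase-1 and Roquin, 9 were kept, and their median was 0.07. The miR-155 arm read at least 1.5-fold higher for 4 of them, at least 1.5-fold lower for 2, and 3 were within 1.5-fold. Of all genes kept, 5.32% read at least 1.5-fold higher and 5.99% lower. A list of 9 genes is too small to set against those shares. Ptgs2, Cxcl1 and Tnf are shared with the list above and counted there too. Tnf read 136 and 324 (log2 ratio 1.25, local SD 0.26), and Nfkbiz, a co-activator of secondary response genes, read 32.2 and 65.3 (1.02, local SD 0.53). The further probesets of Nfkbiz had a reading below the floor. The targets lay in both directions, 1 of the 2 lower ones being Cxcl1, by a probeset with the limits given above. The other was Nfkbid, which read 329 and 215 by its brightest probeset (−0.62, local SD 0.22). The Zc3h12a mRNA was below the floor and that of Rc3h1 had nearly equal signals in both arms. Whether either regulator had a part in the ratios of the targets was not tested.

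**Figure D3:**
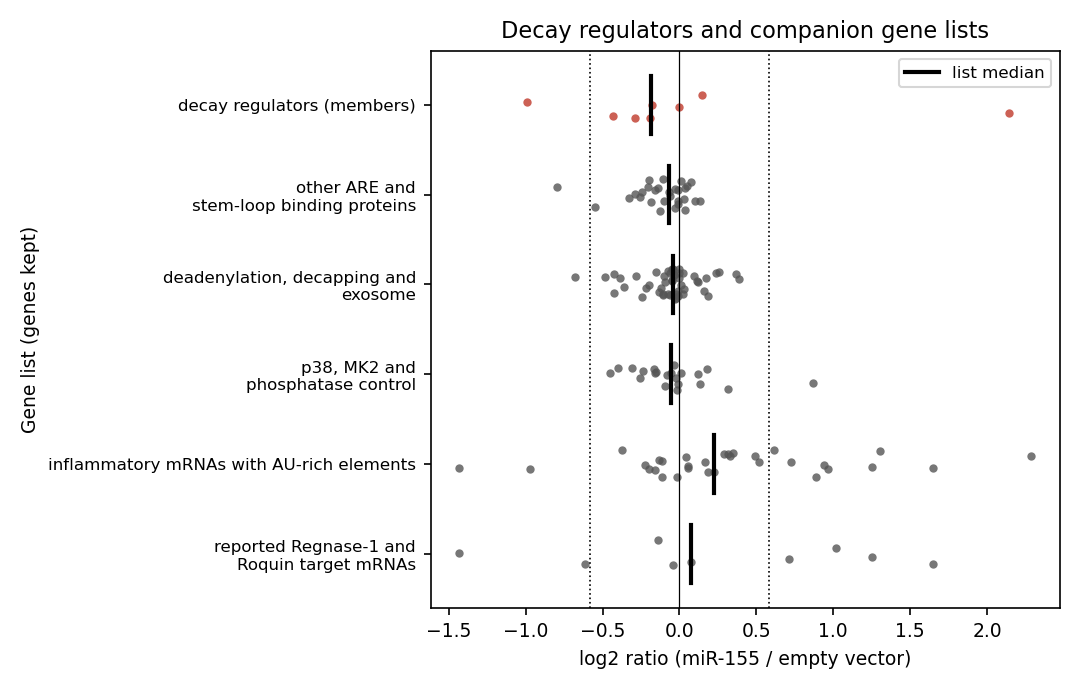
The log2 ratio of miR-155 to empty vector for each gene kept, by list, with the 8 regulators in red, companion genes in grey, list medians as black bars and dotted lines at 1.5-fold. The binding proteins, decay enzymes and p38 genes lie almost wholly within 1.5-fold, while the AU-rich inflammatory messages range from −1.43 to 2.29.

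The ratios of the 8 genes that passed the filter depended on the processing in an uneven way. Zfp36l1 ranged from 1.43 with an offset of 50 added to both signals to 2.19 with the median of the kept genes set to 0, at least 1.5-fold higher under every setting in which it was kept. Khsrp ranged from −0.99 to −0.30, the latter with plain probesets only, that is without those whose suffix marks shared probes or transcripts. Zfp36 and Hnrnpd were not kept with plain probesets and have no value there. Tial1 was at −0.43 as reported and turned to 0.04 with plain probesets. Rc3h1 turned from −0.0020 to 0.046 when the median of the kept genes was set to 0.

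**Figure D4:**
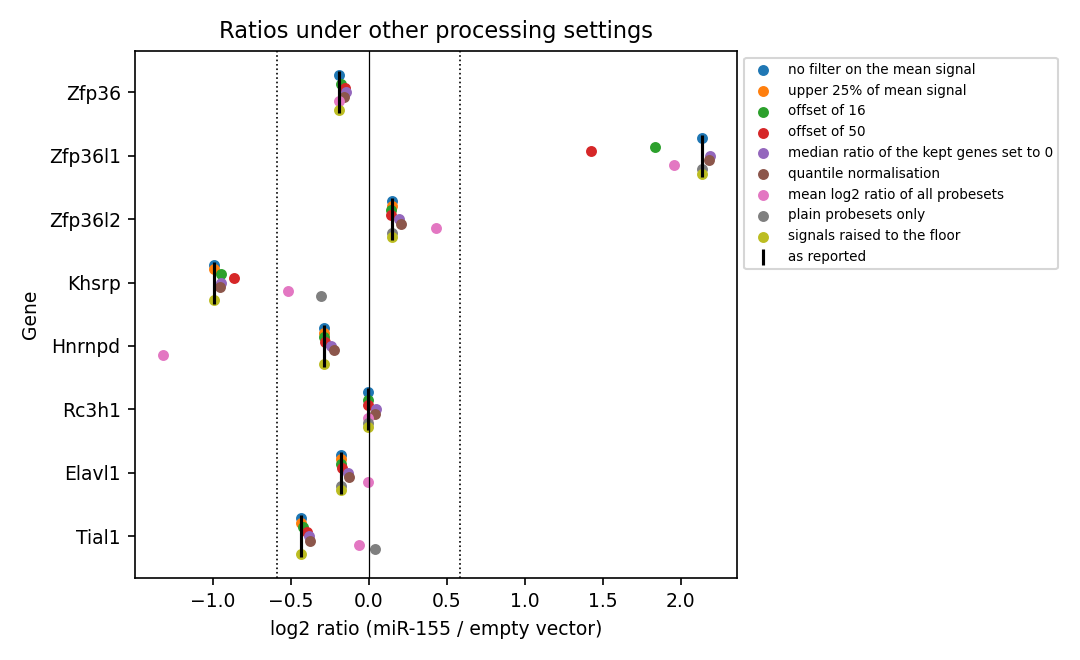
The log2 ratio of each gene (x) as reported (black bar) and under 9 other settings (coloured points), with dotted lines at 1.5-fold. Zfp36l1 stays beyond 1.5-fold wherever it is kept, Khsrp moves inside the line when its probesets are averaged or restricted, and the point for Hnrnpd at −1.32 comes from averaging in its dim probesets.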

How the data were processed

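RNA from 2 pools of RAW264.7 clones, 1 per arm, was measured on 1 array each. The authors deposited 1 linear intensity per probeset and array. Biotin labelling followed the manufacturer's procedures, per the labels' protocols; their summarisation and scaling were not given in the sources used here. Probesets were named through the platform annotation, leaving out 64 control probesets, 932 with several symbols and 9160 unlisted; all 9 members kept their symbol in the RefSeq gene table. The log2 ratio used the deposited signals with no offset, 1 brightest probeset per gene and the upper 50% of mean log2 signal. With 1 array per group, nothing was tested, and the number of arrays limits the precision. Lists were described by counts past 1.5-fold and medians. From each of the 5 lists the 4 largest ratios with both signals at the floor were named. Fos and Nfkbid were named as well, as the other genes at least 1.5-fold lower in their lists. The members and lists were chosen with earlier results of these data known. Filter, offset, scaling, probeset choice and class membership were varied. Steps were tested on simulated data with equal noise at every signal level and the same shift in all probesets of a gene. That test does not cover the wider scatter of dim signals or probesets of a gene that disagree. The tools were pandas 2.3.3 and numpy 2.4.6 on Python 3.11.15.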

Additional observations from a re-analysis of the deposited data

Results flagged for a closer look

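The further probeset of Zfp36l1, which the gene counts leave out in favour of the brighter one, had a signal of 38.3 on the miR-155 array against 11.2 on the empty-vector array. It is listed because it passed the floor on the miR-155 array and read at least 1.5-fold higher there. Only the higher direction was searched in this way. Its empty-vector signal was below the floor. It shares its accession with the brighter probeset.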

How the results depend on the processing

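The median of the destabilising class ranged from −0.29 in the upper 25% of signal to 0.06 with plain probesets only. Its difference from Elavl1 ranged from −0.11 to 0.23 under the same settings, so neither kept its sign. Both ends came with a change of members. In the upper 25% only Zfp36l2, Khsrp and Hnrnpd of the class were kept, and the median was the ratio of Hnrnpd. With plain probesets Zfp36 and Hnrnpd dropped out. Zc3h12a, below the floor of 25.8 on both arrays, came in and was itself the median. The difference was also below 0 with the mean of all probesets (−0.09). There the class median stayed at −0.10, while Elavl1 moved from −0.18 to −0.0057 with its dim probesets averaged in. The difference was 0.21 with Tial1 counted beside Elavl1 and 0.18 without Hnrnpd. Each of these moves was under the median local SD of 0.20. In the upper 25% of signal the count of regulators at least 1.5-fold higher was 0, because Zfp36l1 was no longer kept there. With plain probesets only the count at least 1.5-fold lower was 0, because Khsrp was then at −0.30. With the mean of all probesets that count was 1 again, but for Hnrnpd (−1.32, from its dim probesets), with Khsrp at −0.52. Over all genes kept the counts at 1.5-fold, 484 higher and 545 lower, became 3111 and 3848 with no filter, 110 and 95 in the upper 25%, and 205 and 196 with an offset of 50; the lower count was 351 with an offset of 16 and 978 with averaged probesets. No paired analysis was possible because each group has 1 array. The precision of dim probesets is unknown without detection calls.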
